A study of Mus musculus with 6 samples.

Results

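The genes of cholesterol and fatty acid synthesis were examined in W4 cells, a line of mouse embryonic stem cells, after 16 days of neural differentiation. The set was a list of 32 genes chosen by function, and 31 of them were measured, out of 19938 genes in all. Acat2, which encodes the cytosolic thiolase at the entry to the pathway, had no probe set that carried its symbol and was not analysed here. Each gene was read from its brightest probe set, by the mean of the 6 arrays. The exposed group was kept in 300 uM valproate (VPA), a histone deacetylase inhibitor used against epilepsy, throughout those days, a sub-toxic dose per the labels. The control group was given the solvent alone, phosphate-buffered saline (PBS). Both groups came from this 1 line, in medium with B27, N2, basic FGF, laminin and insulin, and each had 3 arrays, described by the design text as biological replicates. The comparison asks which transcripts differ when this developmental neurotoxicant is present while neurons form.

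Cells make cholesterol from acetyl-CoA by way of mevalonate, isoprenoid units, squalene and lanosterol. When membrane sterol is low, the SCAP protein escorts the transcription factor SREBP out of the endoplasmic reticulum and SREBP switches on the synthesis genes, whereas INSIG proteins hold the complex back when sterol is plentiful. SREBP also drives fatty acid synthesis genes, and the oxysterol receptor LXR drives the efflux genes Abca1, Abcg1 and Apoe. The brain relies on cholesterol made in place, which neurons obtain in large part from glia.

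With VPA, 10 of the 31 genes fell and 3 rose, at an adjusted p under 0.05 by limma over all 19938 genes. The share called was 41.9%, beside 29.2% of all genes; 32.3% of the set were called lower, beside 15.7% of all genes, and 9.68% higher, beside 13.6%. The set is brightly expressed, and calls depended on level. Over 10 equal bins of mean level, 9.73% of genes were called in the dimmest, 44.1% in bin 6 and 28.7% in the brightest. Among genes at or above the 50th percentile of mean level, which include all 31, 41.8% were called and 26.6% were called lower, and 14 of the 31 (45.2%) were called there. Read against that brighter part of all genes, the share of the set that was called lay near the background. This background is not matched closely by level, since 12 of the 31 lie in the brightest bin, where 28.7% were called. The genes that fell were Hmgcs1, Pmvk, Idi1, Fdps, Lss, Cyp51, Insig2, Abca1, Abcg1 and Apoe, and those that rose were Mvk, Hsd17b7 and Stard4. After quantile normalization 4 of the 31 rose and 7 fell, while over all genes 29.2% were again called but the balance turned, with 15.8% higher and 13.4% lower.

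**Figure D1:**
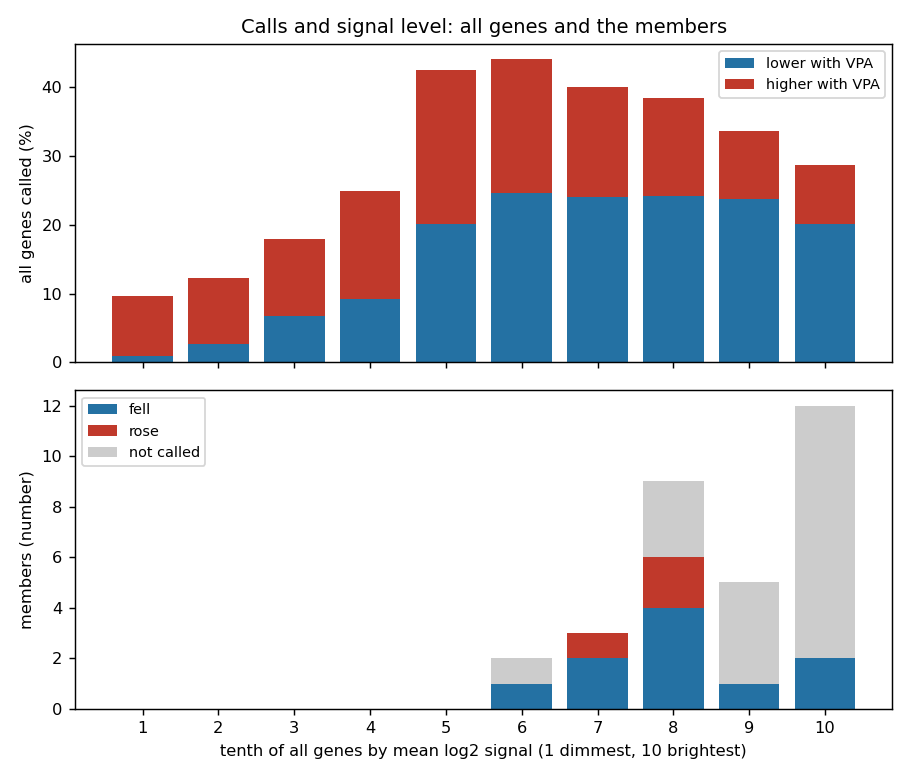
The upper panel gives the percentage of all genes called lower or higher with VPA in 10 equal bins of mean log2 signal, from dimmest to brightest; the lower panel gives the number of members that fell, rose or were not called in each bin. All 31 members lie in bins 6 to 10, where 28.7% to 44.1% of all genes were called, and 12 lie in the brightest bin, of which 2 fell and 0 rose.

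The changes were small. The median change over the 31 genes was -0.11 on the log2 scale, beside 0.0013 over all genes and -0.05 over genes at or above the 50th percentile of level. After quantile normalization these medians were -0.06, 0.02 and -0.01. On the deposited scale the median absolute change of the set was 0.14, beside 0.12 over all genes. No member reached a 1.5-fold difference (0 of 31), which 5.66% of all genes did; the largest change, that of Abcg1, was 1.49-fold. No PBS array overlapped the VPA range for 17 of the 31 genes (54.8%), beside 44.0% of all genes. VPA was lower in 13 of these and higher in 4, beside 23.8% and 20.2% of all genes. These shares take in the dim genes, where calls were fewer, and are not matched to the level of the set. All 31 genes had both group means above 6.155, a background gauge set at the 95th percentile of 1027 olfactory receptor genes. The lowest group mean of a member was 7.74, that of Pmvk with VPA.

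VPA replicate 1 stood apart from the other VPA arrays. Its median absolute difference from them over all genes was 0.12 and 0.13, against 0.07 between VPA replicates 2 and 3 and 0.06 to 0.07 between PBS arrays. Its value lay above both other VPA arrays for 51.6% of the set and for 36.2% of all genes. Results that rest on it are given with and without it. Array medians lay between 6.99 and 7.03, so each change is relative to the other genes on the arrays.

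**Figure D2:**
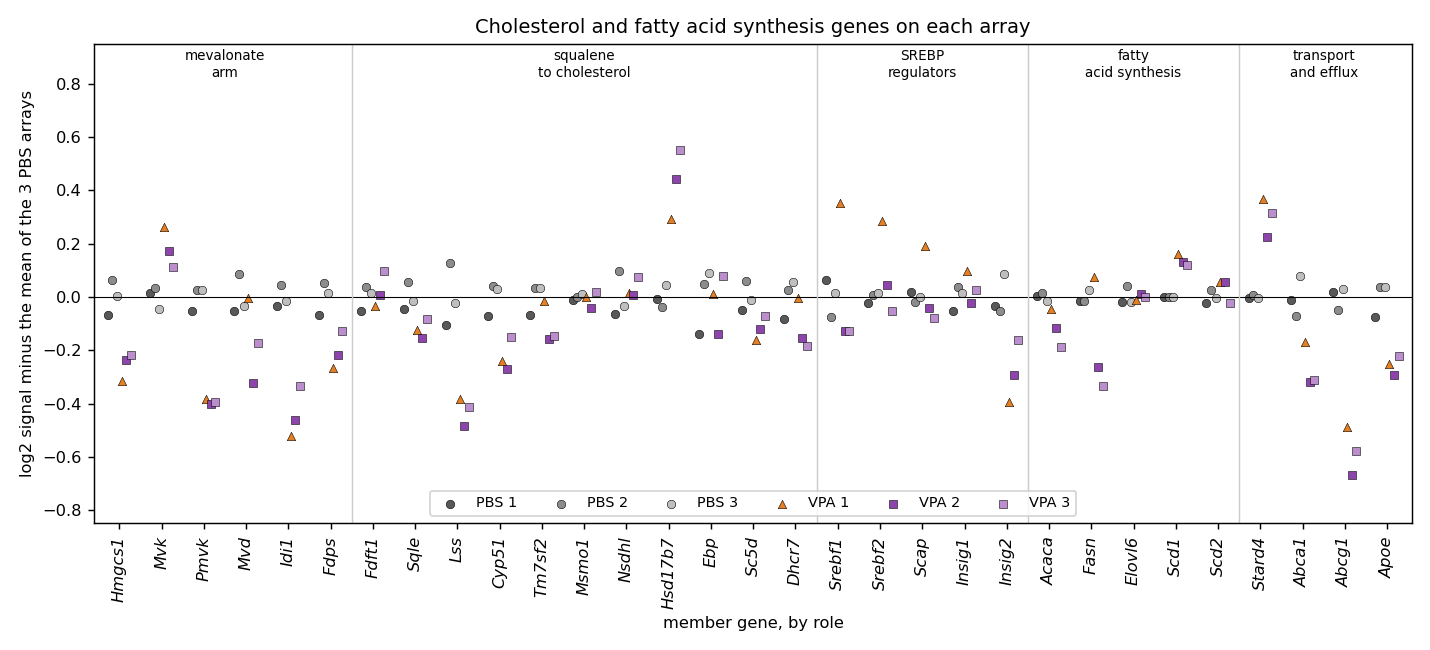
Each point is 1 array's log2 signal of a member minus the mean of the 3 PBS arrays, with members ordered by role along the horizontal axis; circles are PBS, the triangle is VPA 1 and squares are VPA 2 and VPA 3. The VPA points of Pmvk, Idi1, Lss and Abcg1 lie below all PBS points and those of Hsd17b7 and Stard4 above them. For Srebf1, Scap, Insig1 and Fasn VPA 1 alone lies above all PBS points.

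The mevalonate arm turns acetyl-CoA into the isoprenoid farnesyl diphosphate. Of its 6 measured genes 4 fell and 1 rose, beside 15.7% of all genes called lower and 13.6% higher. Its median change was -0.23. Hmgcs1, which encodes the cytosolic HMG-CoA synthase, read 11.53, 11.66 and 11.60 in PBS replicates 1 to 3 and 11.28, 11.36 and 11.38 in VPA replicates 1 to 3. All VPA arrays were lower, and the change was -0.26 (SE 0.06, 95% interval -0.40 to -0.12, adjusted p = 0.0121 by limma). The call was lost after quantile normalization, at -0.18 and an adjusted p of 0.072, and without PBS replicate 2, at -0.23 and an adjusted p of 0.0645. After quantile normalization 1 gene of the arm rose and 2 fell, where 15.8% of all genes were called higher and 13.4% lower.

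The phosphorylation steps moved in opposite directions. Mvk, the mevalonate kinase gene, read 8.69, 8.71 and 8.63 with PBS and 8.94, 8.85 and 8.79 with VPA. It was higher on every VPA array, by 0.18 (SE 0.06, adjusted p = 0.0491), the member nearest to the threshold among those called; the adjusted p lay between 0.0164 and 0.17 over the 17 alternatives, 9 of which ended the call. Leaving out any array but VPA replicate 3 did so: it was 0.119, 0.106 and 0.17 without PBS replicates 1, 2 and 3, and 0.0565 and 0.106 without VPA replicates 1 and 2. Pmvk, which encodes the kinase that acts on the product of Mvk, read 8.08, 8.16 and 8.16 with PBS and 7.75, 7.73 and 7.74 with VPA. The VPA arrays of Pmvk agreed to within 0.02 and lay below all PBS arrays, and the change of -0.39 (SE 0.05, adjusted p = 8.38e-04) was called under all 17 alternatives. Mvd, which encodes the decarboxylase that yields isopentenyl diphosphate, read 8.80, 8.94 and 8.82 with PBS and 8.85, 8.53 and 8.68 with VPA, so the groups overlapped through VPA replicate 1. Its change was -0.17 (95% interval -0.36 to 0.03, adjusted p = 0.185), and without VPA replicate 1 it was -0.25 (SE 0.07, adjusted p = 0.0185).

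Idi1, the isomerase gene that balances both isoprene units, showed the largest change of this arm. It read 9.36, 9.44 and 9.38 with PBS and 8.87, 8.93 and 9.06 with VPA, lower on all VPA arrays, with a change of -0.44 (SE 0.07, adjusted p = 0.00115). A dimmer probe set of Idi1 read 9.36, 9.39 and 9.39 with PBS and 8.84, 8.87 and 9.04 with VPA, a change of -0.47 (SE 0.07, adjusted p = 9.12e-04 over 21789 probe sets). Both probe sets thus gave nearly the same difference. Fdps, which encodes farnesyl diphosphate synthase, read 10.14, 10.26 and 10.22 with PBS and 9.94, 9.99 and 10.08 with VPA. Its groups did not overlap, and it fell by 0.20 on the log2 scale (SE 0.06, adjusted p = 0.0384), a call that 8 of 17 alternatives ended (adjusted p between 0.0108 and 0.15). The adjusted p of Fdps was 0.0573, 0.15 and 0.119 without PBS replicates 1, 2 and 3, and 0.104 without VPA replicate 2.

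Of the 11 genes that lead from farnesyl diphosphate through squalene to cholesterol, 2 fell, 1 rose and 8 were not called. Their median change was -0.11, and over all genes 15.7% were called lower and 13.6% higher. At the head of this branch, the squalene synthase gene Fdft1 read 11.33, 11.42 and 11.40 with PBS and 11.35, 11.39 and 11.48 with VPA. The groups overlapped, with a change of 0.02 and a 95% interval of -0.11 to 0.16, and its dimmer probe set changed by 0.05 (95% interval -0.10 to 0.19). Sqle, the squalene epoxidase gene, a rate-limiting step, read 10.42, 10.52 and 10.45 with PBS and 10.34, 10.31 and 10.38 with VPA. All its VPA arrays were lower, but the change of -0.12 (95% interval -0.25 to 0.01) did not pass (adjusted p = 0.148).

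The genes that fell here encode enzymes that close and trim the sterol ring. Lss, which encodes lanosterol synthase, read 9.35, 9.58 and 9.43 with PBS and 9.07, 8.97 and 9.04 with VPA. Every VPA array was lower, the change was -0.43 (SE 0.07, adjusted p = 0.00199), and it was called under all 17 alternatives. Cyp51, the lanosterol demethylase gene, read 9.73, 9.84 and 9.83 with PBS and 9.56, 9.53 and 9.65 with VPA. Its groups did not overlap and it changed by -0.22 (SE 0.06, adjusted p = 0.0285), a call that 6 of 17 alternatives ended, quantile normalization among them (-0.16, adjusted p = 0.0756). The others include leaving out PBS replicate 2, PBS replicate 3 or VPA replicate 2, with adjusted p of 0.115, 0.105 and 0.0962. Tm7sf2, which encodes a reductase of the step after Cyp51, was not called, at -0.11 (95% interval -0.25 to 0.03).

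Hsd17b7 went the other way. Its product is the keto-reductase of the sterol demethylation steps and also makes estradiol from estrone. It read 8.54, 8.51 and 8.59 with PBS and 8.84, 8.99 and 9.10 with VPA, a rise of 0.43 (SE 0.07, adjusted p = 0.00245). VPA replicate 1 gave the lowest VPA value, and without it the rise was 0.50 (SE 0.06, adjusted p = 2.83e-04). Msmo1 and Nsdhl, the members whose products act beside it in the same demethylation complex, were not called. Erg28, a gene of this complex in the further list, rose by 0.20 (SE 0.06, adjusted p = 0.0384). Msmo1, the methyl sterol oxidase gene, read 10.65 to 10.67 with PBS and 10.62 to 10.68 with VPA, a change of -0.01 (95% interval -0.13 to 0.11). Nsdhl, the decarboxylating dehydrogenase gene, changed by 0.03 (95% interval -0.11 to 0.17).

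The late steps gave no calls. Ebp, the sterol isomerase gene, changed by -0.02 (95% interval -0.21 to 0.17). Sc5d, the sterol desaturase gene, was lower on all VPA arrays, at 9.57 to 9.66 against 9.68 to 9.79, but its change of -0.11 did not pass (adjusted p = 0.181). Dhcr7, whose product reduces the last precursor to cholesterol, read 9.48, 9.59 and 9.62 with PBS and 9.56, 9.41 and 9.38 with VPA. VPA replicate 1 was its highest VPA array and overlapped PBS. The change of Dhcr7 was -0.12 (95% interval -0.27 to 0.04, adjusted p = 0.25), and -0.17 (SE 0.06, adjusted p = 0.043) without VPA replicate 1.

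**Figure D3:**
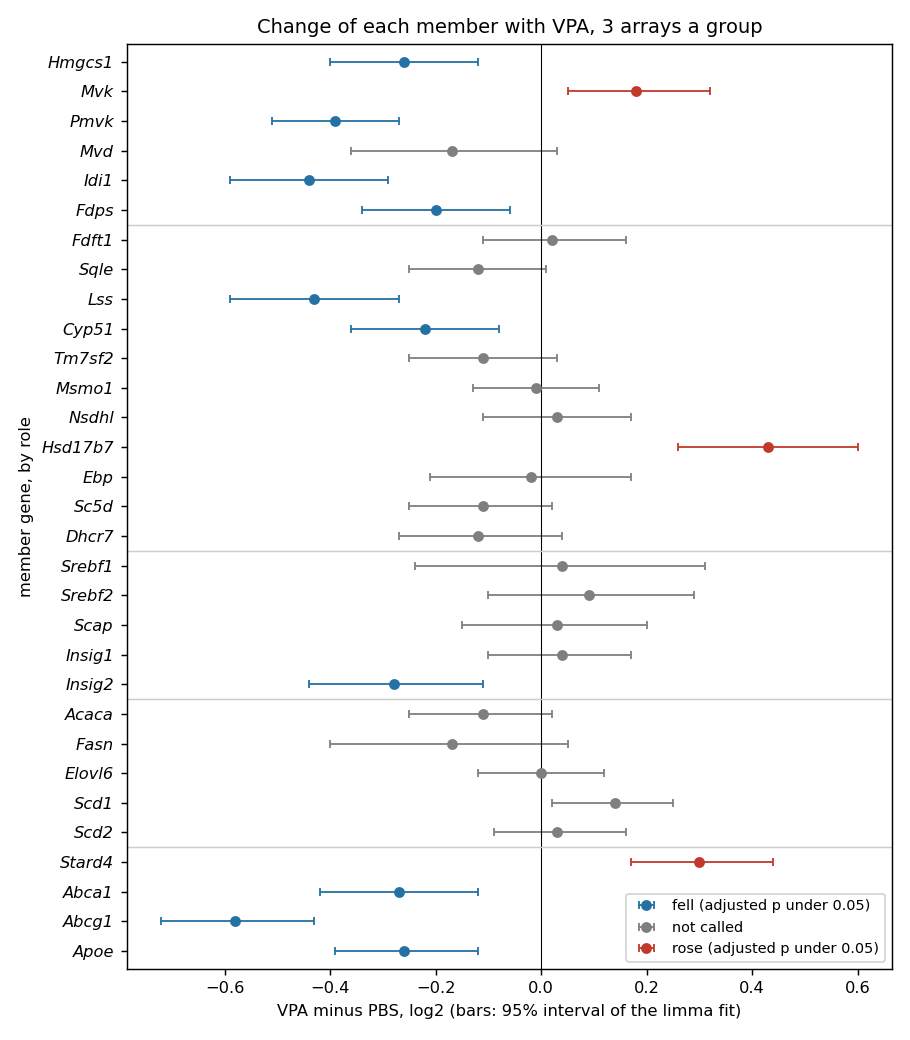
Each point is the change of a member, VPA minus PBS in log2 units, with its 95% interval from the limma fit and 3 arrays a group; grey lines separate the roles. The intervals of the 13 called genes exclude 0, from -0.72 to -0.43 for Abcg1 at the low end to 0.26 to 0.60 for Hsd17b7 at the high end, and that of Scd1, 0.02 to 0.25, excludes 0 without passing the adjusted threshold.

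To show what lies upstream of sterol genes that moved, the 250 bases before the annotated start site are given for 4 genes that fell and for 2 that rose, from RefSeq promoter windows of mouse build GRCm38.p6. Their positions are Hmgcs1 chr13:119690101-119690350 (plus strand), Idi1 chr13:8885356-8885605 (plus strand), Lss chr10:76531355-76531604 (plus strand), Cyp51 chr5:4104698-4104947 (minus strand), Hsd17b7 chr1:169969206-169969455 (minus strand) and Mvk chr5:114444019-114444268 (plus strand). Capitals mark CCAAT or its complement ATTGG, the letters bound by the SREBP partner NF-Y, and in Hmgcs1 also TCACCCCAC, a match to the sterol regulatory element TCACNCCAC.
Hmgcs1: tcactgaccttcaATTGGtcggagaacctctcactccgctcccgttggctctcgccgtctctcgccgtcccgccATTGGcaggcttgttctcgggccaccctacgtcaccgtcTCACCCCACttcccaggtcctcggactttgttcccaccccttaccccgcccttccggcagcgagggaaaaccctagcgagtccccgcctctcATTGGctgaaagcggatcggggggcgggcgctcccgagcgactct
Idi1: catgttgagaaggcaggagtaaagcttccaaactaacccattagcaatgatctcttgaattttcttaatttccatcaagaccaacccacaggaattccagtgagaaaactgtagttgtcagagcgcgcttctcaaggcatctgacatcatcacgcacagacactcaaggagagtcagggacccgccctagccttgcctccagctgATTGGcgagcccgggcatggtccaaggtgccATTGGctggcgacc
Lss: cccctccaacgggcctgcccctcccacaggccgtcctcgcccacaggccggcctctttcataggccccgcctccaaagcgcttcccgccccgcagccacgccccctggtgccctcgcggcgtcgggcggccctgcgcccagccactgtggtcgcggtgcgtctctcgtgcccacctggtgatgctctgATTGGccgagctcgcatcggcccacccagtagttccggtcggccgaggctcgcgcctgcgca
Cyp51: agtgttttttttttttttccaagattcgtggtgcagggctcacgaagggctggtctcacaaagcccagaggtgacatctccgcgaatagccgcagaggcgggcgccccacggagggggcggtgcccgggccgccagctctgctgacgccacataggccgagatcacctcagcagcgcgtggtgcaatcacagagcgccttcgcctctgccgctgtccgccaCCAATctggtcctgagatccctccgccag
Hsd17b7: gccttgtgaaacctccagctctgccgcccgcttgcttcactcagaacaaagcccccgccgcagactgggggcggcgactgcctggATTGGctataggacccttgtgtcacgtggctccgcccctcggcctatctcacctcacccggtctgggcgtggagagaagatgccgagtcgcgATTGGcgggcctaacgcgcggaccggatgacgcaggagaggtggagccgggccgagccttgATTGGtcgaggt
Mvk: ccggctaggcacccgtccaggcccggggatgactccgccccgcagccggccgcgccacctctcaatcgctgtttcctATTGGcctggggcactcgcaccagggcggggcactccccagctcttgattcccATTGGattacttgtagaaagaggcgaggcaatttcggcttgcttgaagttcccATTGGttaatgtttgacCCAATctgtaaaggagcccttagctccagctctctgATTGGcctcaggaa

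Promoter windows were matched by symbol for 24 of the 31 genes. On either strand, the 250 bases held CCAAT in at least 1 window of 19 of these 24 genes, beside 38.8% of the 15614 measured genes with a window. The letters were found in 6 of 8 genes that fell, 2 of 2 that rose and 11 of 14 that were not called, so they occurred in all 3 classes. Every sequence shown above holds them. Of the genes that fell and are not shown, Abca1 and Apoe held them in no window, and Pmvk and Insig2 only in some windows. The sterol regulatory element TCACNCCAC was found in 1 of 24, Hmgcs1, where its first base lies at -137 from the start site, beside 1.2% of genes. The GC box GGGCGG was found in 19 of 24, beside 49.3%, and the E-box CACGTG in 6 of 24, beside 8.11%. A gene with more windows has more places to match. The background takes in genes of every signal level, dim ones included, and was not matched to the bright expression of the set. Counted by window, CCAAT was found in 20 of 34, beside 34.5% of all windows. The GC box was found in 22 of 34, beside 45.5%, and the E-box in 6 of 34, beside 6.99%. These counts describe letters in short windows and show no binding.

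Among the 5 genes of the SREBP switch, 1 fell and 4 were not called, beside 29.2% of all genes called. Srebf1, which encodes the SREBP isoform most tied to fatty acid synthesis, read 9.34, 9.20 and 9.29 with PBS and 9.63, 9.15 and 9.15 with VPA. VPA replicate 1 lay above all PBS arrays and the other VPA arrays below them. The change was 0.04 with a wide 95% interval of -0.24 to 0.31, and without VPA replicate 1 it was -0.12 (SE 0.06, adjusted p = 0.126). Srebf2, the isoform most tied to cholesterol synthesis, was also highest on VPA replicate 1, at 10.45, 10.48 and 10.49 with PBS and 10.76, 10.52 and 10.42 with VPA. Its change was 0.09 (95% interval -0.10 to 0.29), and -0.01 without VPA replicate 1. The escort gene Scap read 9.10 to 9.14 with PBS and 9.31, 9.08 and 9.04 with VPA, a change of 0.03 (95% interval -0.15 to 0.20). Without VPA replicate 1 the change of Scap was -0.06 (SE 0.05).

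The INSIG genes encode the retention proteins of this switch. Insig1, itself a known SREBP target, read 10.14, 10.23 and 10.21 with PBS and 10.29, 10.17 and 10.22 with VPA. The groups overlapped, and the interval of its change of 0.04 ran from -0.10 to 0.17. Without VPA replicate 1, its only array above all PBS arrays, the change was 0.0 (SE 0.05). Insig2 read 9.24, 9.22 and 9.36 with PBS and 8.88, 8.98 and 9.11 with VPA. All its VPA arrays were lower, and it changed by -0.28 (SE 0.07, adjusted p = 0.0209), a call that 5 of 17 alternatives ended (adjusted p between 0.00555 and 0.0912). It was 0.0573 without PBS replicate 1, 0.0888 without PBS replicate 3 and 0.058 without VPA replicate 2. Whether the change of Insig2 differed from that of Insig1 was not tested.

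None of the 5 fatty acid synthesis genes was called (0 of 5 by limma, 1 at an unadjusted p under 0.05), beside 29.2% of all genes called. In the fit of genes at or above the 50th percentile of level, 41.8% were called, and 1 of these 5 rose. Fasn, which encodes fatty acid synthase, read 10.67, 10.67 and 10.71 with PBS and 10.76, 10.42 and 10.35 with VPA. Its VPA replicate 1 lay above all PBS arrays while VPA replicates 2 and 3 lay below them. The change was -0.17 (95% interval -0.40 to 0.05, adjusted p = 0.235), and without VPA replicate 1 it was -0.30 (SE 0.05, adjusted p = 0.00233).

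Acaca, which encodes the acetyl-CoA carboxylase that makes malonyl-CoA, had 2 probe sets that disagreed in size. The brighter read 9.94, 9.95 and 9.92 with PBS and 9.89, 9.82 and 9.75 with VPA, a change of -0.11 that did not pass (SE 0.06, adjusted p = 0.183). The dimmer read 8.99, 9.0 and 8.91 with PBS and 8.64, 8.61 and 8.65 with VPA, a change of -0.33 that did (SE 0.05, adjusted p = 0.00204 over 21789 probe sets). In neither did the groups overlap, and with the mean of both probe sets the change was -0.22 (adjusted p = 0.0134).

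The desaturase gene Scd1 was nearly constant within each group, at 10.61 on all PBS arrays and at 10.77, 10.74 and 10.73 with VPA. The groups did not overlap, but the difference of 0.14 (SE 0.05) had an adjusted p of 0.0825, and it passed under 5 of the 17 alternatives (adjusted p between 0.0122 and 0.208). Its neighbour Scd2, the main desaturase gene of the brain, read 12.36 to 12.41 with PBS and 12.36 to 12.44 with VPA (change 0.03, 95% interval -0.09 to 0.16). Elovl6, which lengthens palmitate, read 10.37 to 10.43 with PBS and 10.38 to 10.40 with VPA, with a 95% interval of -0.12 to 0.12.

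All 4 genes of sterol transport and efflux were called, 3 lower and 1 higher, beside 15.7% of all genes lower and 13.6% higher. Stard4, which encodes a soluble carrier of sterol between membranes, read 7.99, 8.0 and 7.99 with PBS and 8.36, 8.22 and 8.31 with VPA. It rose by 0.30 (SE 0.06, adjusted p = 0.00466), more than the spread of either group, and was called under all 17 alternatives. Abcg1, which encodes an exporter of sterol to lipoprotein particles, read 8.48, 8.41 and 8.49 with PBS and 7.97, 7.79 and 7.88 with VPA. This was the largest change of the set, -0.58 (SE 0.06, adjusted p = 2.31e-04), a larger absolute change than that of 94.2% of all genes, and it was called under all alternatives too.

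Abca1, which encodes the exporter that loads lipid onto apolipoproteins, read 9.29, 9.23 and 9.38 with PBS and 9.13, 8.98 and 8.99 with VPA. It changed by -0.27 (SE 0.07, adjusted p = 0.0161), and 6 of 17 alternatives ended the call. The adjusted p of Abca1 was 0.0538 and 0.0737 without PBS replicates 1 and 3, and 0.0572 and 0.0506 without VPA replicates 2 and 3. Apoe, the main lipid-carrying apolipoprotein of the brain, read 8.69, 8.80 and 8.80 with PBS and 8.51, 8.47 and 8.54 with VPA, lower on all VPA arrays, with a change of -0.26 (SE 0.06, adjusted p = 0.0102). Its adjusted p lay between 0.00172 and 0.0548 over the alternatives, and 3 of 17 ended the call, among them leaving out PBS replicate 2 (0.0548) or PBS replicate 3 (0.0509). Nr1h3, an LXR receptor gene, lay below the background gauge in both groups, at means of 6.06 and 6.04, so no change in its expression could be read. The other LXR gene, Nr1h2, had no probe set that carried its symbol and was not measured.

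**Figure D4:**
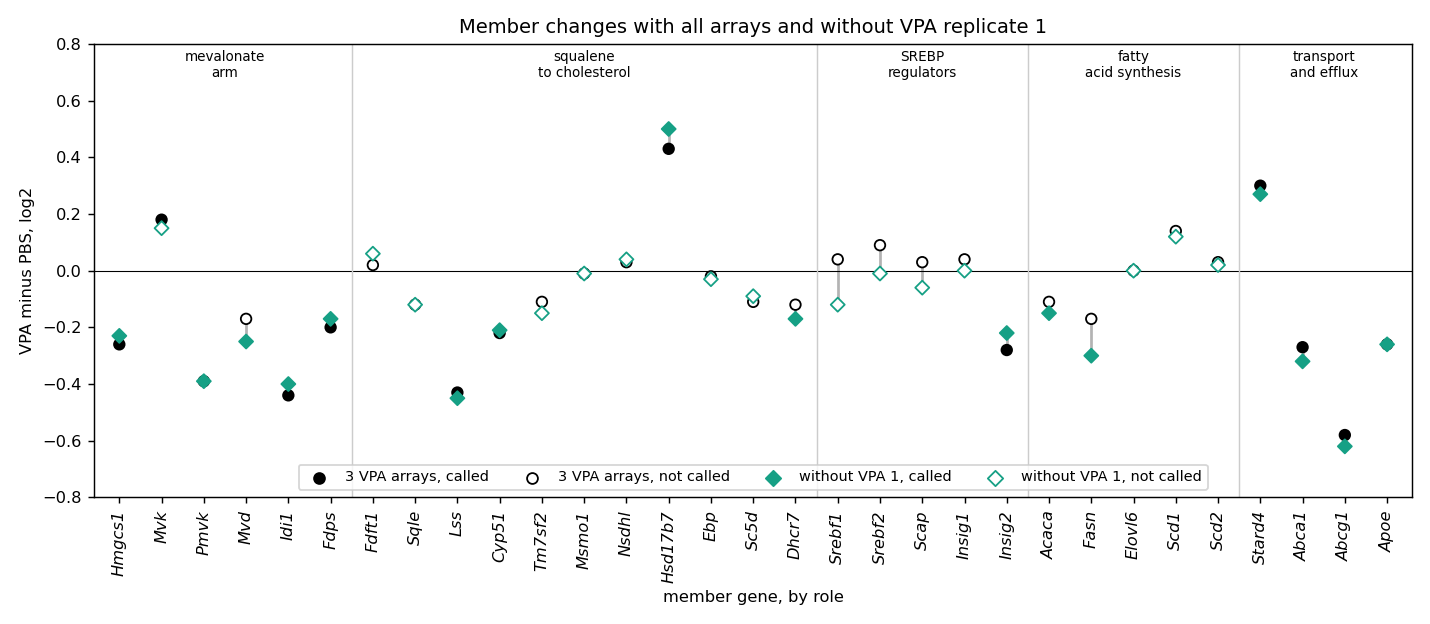
Circles give the change of each member with all 3 VPA arrays and diamonds that without VPA replicate 1, VPA minus PBS in log2 units; filled symbols passed an adjusted p of 0.05. The change of Fasn moves from -0.17 to -0.30, that of Srebf1 from 0.04 to -0.12 and that of Mvd from -0.17 to -0.25, while those of Pmvk and Apoe stay at -0.39 and -0.26.

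Without VPA replicate 1, 14 of the 31 genes fell and 2 rose, beside 41.0% of all genes called, 21.2% lower and 19.8% higher. These shares take in dim genes and are not matched to the level of the set. Mvd, Dhcr7, Acaca and Fasn joined the genes that fell, and Mvk no longer passed (adjusted p = 0.0565). Leaving out another array lowered the count of falls, to 7 without PBS replicate 1, 6 without PBS replicate 2, 5 without PBS replicate 3, 6 without VPA replicate 2 and 9 without VPA replicate 3. The share of all genes called lower dropped as well, from 15.7% to 10.7%, 10.3%, 10.5%, 11.7% and 13.6% in the same order. The 6 calls that held under all 17 alternatives were those of Pmvk, Idi1, Lss, Abcg1, Hsd17b7 and Stard4.

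A further list of 108 genes of the same metabolism, of which 93 were measured and 15 were not analysed here, was read beside the set. Of the 93, 17 rose and 17 fell (36.6% called, median change -0.01). This share lay near the background: 29.2% of all genes and 41.8% of those at or above the 50th percentile were called. After quantile normalization 18 of the 93 rose and 11 fell, beside a shift over all genes from 2702 higher and 3123 lower to 3147 higher and 2671 lower. Without PBS replicate 1, 2 or 3 the falls numbered 9 each time, and without PBS replicate 2 there were 11 rises; over all genes those settings gave 2058 to 2139 falls and 1778 rises. In the list of other sterol synthesis and isoprenoid genes 1 of 11 rose and 4 fell, with a median change of -0.13. Coq2 and Pdss2, which act in ubiquinone synthesis from isoprenoids, changed by -0.35 (SE 0.06, adjusted p = 0.00167) and -0.26 (SE 0.07). Ggps1, which makes the geranylgeranyl donor, changed by -0.25 (SE 0.07, adjusted p = 0.0359). The call of Ggps1 was lost after quantile normalization (-0.21, adjusted p = 0.0824), and it and that of Pdss2 were lost without any 1 of the PBS arrays or without VPA replicate 2 (adjusted p 0.0861 to 0.11 for Ggps1 and 0.0522 to 0.0783 for Pdss2).

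Of 27 other fatty acid synthesis genes 4 rose and 3 fell. This was 25.9% called, beside 29.2% of all genes. The largest changes were in elongases. Elovl1, which extends saturated very long chains, rose from 8.38 ± 0.09 with PBS to 9.15 ± 0.07 with VPA (SD, n = 3), by 0.77 (SE 0.07, adjusted p = 6.05e-05 by limma). Elovl5, which extends polyunsaturated chains, rose by 0.35 (SE 0.06), and Elovl4, an elongase of neurons and retina, changed by -0.32 (SE 0.07, adjusted p = 0.00853). Acly, which supplies cytosolic acetyl-CoA, changed by 0.02 (95% interval -0.13 to 0.16).

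In sterol uptake and movement 3 of 16 genes rose and 2 fell (31.2% called, beside 29.2% of all genes). Mylip, whose product marks lipoprotein receptors for degradation and which is an LXR target, rose by 0.71 (SE 0.08, adjusted p = 1.79e-04). Tmem97, the sigma-2 receptor gene, rose by 0.60 (SE 0.08), and Vldlr, a lipoprotein and reelin receptor gene, changed by -0.48 (SE 0.06, adjusted p = 4.49e-04). Among 16 genes of LXR action, efflux, esterification and oxysterols 6 rose and 3 fell. Cyp39a1, an oxysterol hydroxylase gene, rose from 7.91 ± 0.06 to 9.0 ± 0.21 (SD, n = 3), by 1.10 (SE 0.10, adjusted p = 6.94e-05 by limma), the largest change of the further list. Ch25h, the cholesterol hydroxylase gene, rose by a measured 0.54 (SE 0.10), but its PBS mean of 5.76 lay under the background gauge. The apolipoprotein gene clusterin (Clu) changed by -0.49 (SE 0.07).

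Of 10 genes of SREBP processing and turnover 0 rose and 2 fell by limma, against 1 higher and 4 lower at an unadjusted p under 0.05. By limma 20.0% were thus called, beside 29.2% of all genes. Those that fell were Paqr3, whose product holds the SCAP and SREBP complex at the Golgi, at -0.38 (SE 0.06, adjusted p = 0.00147), and Erlin2, which encodes a cholesterol-binding protein of the endoplasmic reticulum, at -0.25 (SE 0.06, adjusted p = 0.0123, and 0.0582 without PBS replicate 3). Mbtps1, the protease gene that makes the first cut in SREBP, changed by 0.05 (95% interval -0.08 to 0.17). In the list of fatty acid activation and binding 3 of 13 rose and 3 fell (46.2% called, beside 29.2% of all genes). The acyl-CoA synthetase gene Acsl5 changed by 0.75 (SE 0.08), although its mean with PBS, 5.89, was under the gauge. The fatty acid carrier gene Fabp3 changed by -0.44 (SE 0.06) and Ppard, a fatty acid receptor gene, by 0.32 (SE 0.06).

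**Figure D5:**
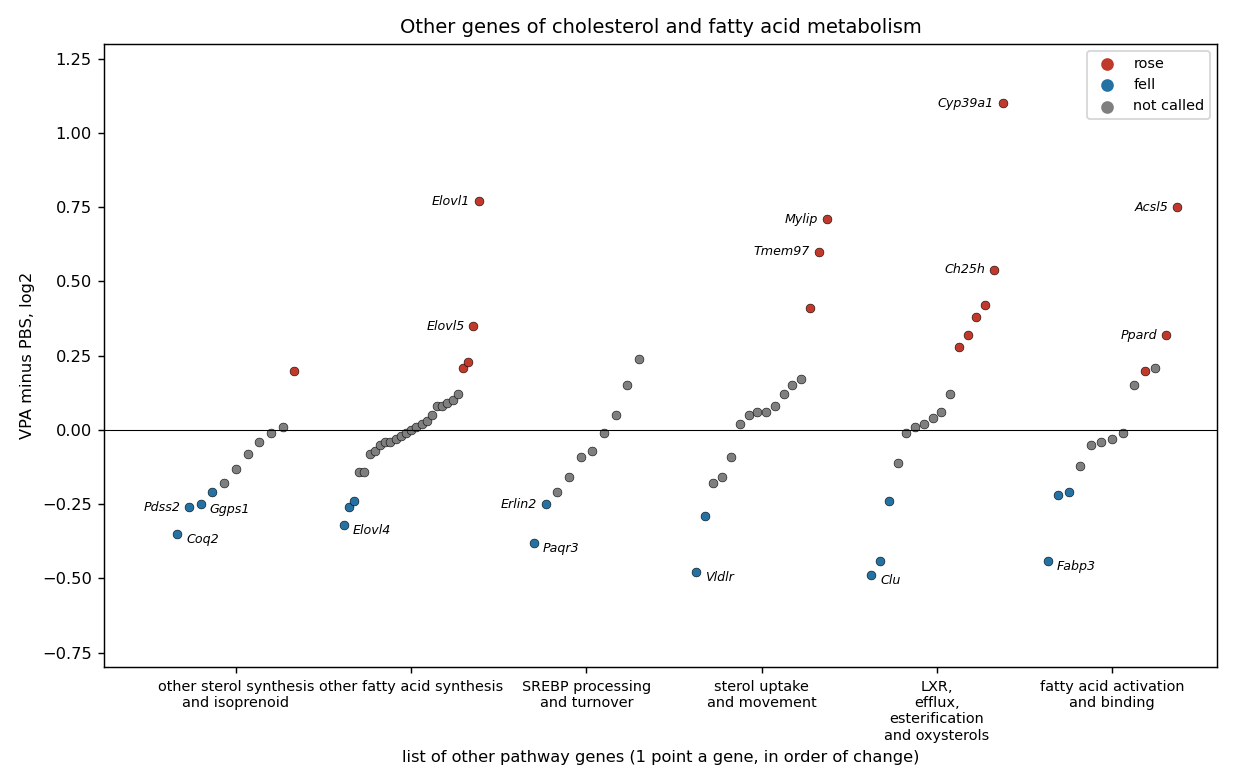
Each point is 1 of 93 other pathway genes, placed by its change, VPA minus PBS in log2 units, within its list; colours show genes that rose, fell or were not called, and the genes with the largest called changes are named. Cyp39a1 at 1.10, Elovl1 at 0.77, Acsl5 at 0.75 and Mylip at 0.71 lie above the largest rise among the members, 0.43 for Hsd17b7.

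Markers of the cell types that such cultures can hold moved in the same comparison, where 15.7% of all genes were called lower and 13.6% higher. Of 10 neuron markers 8 fell and 1 rose (Nefm), and their mean level per array was 10.79 to 10.84 with PBS and 10.67 to 10.72 with VPA. All 9 measured markers of fibroblasts and matrix rose, with mean levels of 8.0 to 8.25 with PBS and 9.77 to 9.87 with VPA, as did 8 of 9 markers of cycling cells, at 9.18 to 9.37 and 9.67 to 9.76. Of 14 markers of astrocytes and radial glia, cells known for making sterol and Apoe, 4 rose and 3 fell, with mean levels of 9.19 to 9.25 with PBS and 9.22 to 9.26 with VPA. The astrocyte water channel gene Aqp4 and S100b had both group means below the gauge.

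Several markers of other lipid-rich cell types lay at background. Of 10 macrophage and microglia markers 7 lay below the gauge in both groups and 0 were called by limma (2 at an unadjusted p under 0.05). Of 9 adipocyte markers 4 lay below it and 3 were called higher, of which Cd36 and Fabp4 lay below the gauge in both groups and Lpl did not. Of 9 markers of visceral endoderm and liver 4 lay below it and 1 fell (Ttr). In the oligodendrocyte lineage list 2 of 9 rose and 3 fell, and 8 of 10 endothelial markers rose, beside 13.6% of all genes higher and 15.7% lower. The part of these cell types in the changes of the lipid genes was not tested. In such bulk samples, fewer cells of a type and less RNA per cell cannot be told apart.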

How the data were processed

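RNA of 3 PBS and 3 VPA cultures was labelled by the Affymetrix whole transcript assay, per the labels' protocols. The authors deposited log2 signals, with 1 value per probe set and array. No source names the log base; values of 2.5 to 13.89 were taken as base 2. How background was corrected and arrays were normalized is not given in the sources used here. The submitters' processing notes name Partek 6.5 and mm9 without a role.

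Of 35556 probe sets, 21789 had 1 gene symbol in GEO's platform annotation, 1621 had several and 12146 had none. Names were brought up to date by Entrez ID from a RefSeq table of build GRCm38.p6, where 21698 of the 21789 matched. The brightest probe set represented each of 19938 genes, 999 of which had more than 1. Groups were compared by lmFit and eBayes of limma 3.58.1 (R 4.3.3), without covariates. Calls were made at an adjusted p under 0.05 (Benjamini-Hochberg, over all genes), and every adjusted p and SE comes from that fit unless another is named. The fit was tested on simulated data, in which few genes changed and no array stood apart. It thus did not cover a share of calls as large as here or an array like VPA replicate 1. The smallest two-sided p of an exact permutation test of 3 against 3 is 0.1, and no such test was run. The number of arrays limits the precision.

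All members are named. Of the other pathway genes, up to 3 with the largest called change per list are named, with Acly, Nr1h3 and Mbtps1. Erg28 is named besides, as a gene of the demethylation complex, and Nr1h2 as a gene that was not measured. The members, lists and alternatives were chosen with earlier results of these data known. Alternatives covered scaling, filters on dim genes, variance models, weights per array, a block by replicate number, the threshold, the probe set per gene, and leaving out each array. Values of a dimmer probe set, and alternatives for single genes of the further list, were added after seeing the data. Motif counts in promoters are descriptions.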

Additional observations from a re-analysis of the deposited data

How the results depend on the processing

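The 13 calls of the set and the 18 genes not called were followed through 17 alternatives and, for 3 genes, a dimmer probe set. Of 530 such values, 455 kept their direction and their side of the threshold, 40 lost a call, 16 gained a call and 19 changed sign, the last only in genes that were not called. Of the 10 falls, 6 remained without moderation of the variances and 4 at an adjusted p under 0.01; the latter were those of Pmvk, Idi1, Lss and Abcg1. Leaving out each array gave 5 to 14 falls and 2 to 3 rises of members, 9 to 22 falls and 11 to 21 rises of the other pathway genes, and 2058 to 4224 falls and 1778 to 3949 rises over all genes. Among the other pathway genes, 11 rose and 9 fell without moderation, 11 rose and 7 fell at the stricter threshold, and 11 fell after quantile normalization. Over all genes, where 2702 rose and 3123 fell, 1520 rose among those at or above the 50th percentile, 1631 without moderation and 4342 with array weights, and 1579 rose and 1791 fell at the stricter threshold.

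Signs turned as follows. After quantile normalization, which moved the median of all genes by 0.02, Msmo1 and Ebp read 0.02 and Elovl6 0.04. Of the 20 further genes named, Erg28 aside, 309 of 333 values stayed alike, 17 lost a call and 7 changed sign, in Acly and Nr1h3. With array weights, Acly read -0.02, Nr1h3 0.03, Srebf1 -0.08, Scap -0.03, Insig1 -0.0061 and Elovl6 0.0026. Over the arrays left out in turn, the changes that turned were those of Fdft1 (-0.01 to 0.06), Msmo1 (-0.02 to 0.0074), Ebp (-0.09 to 0.05), Srebf1 (-0.12 to 0.12), Srebf2 (-0.0064 to 0.17), Scap (-0.06 to 0.08), Elovl6 (-0.01 to 0.02), Acly (-0.03 to 0.05) and Nr1h3 (-0.05 to 0.04). The cause of these shifts was not tested. The replicate number as a block left 2 rises and 9 falls among the members, against 3 and 10, with the calls of Mvk (adjusted p = 0.0705) and Fdps (adjusted p = 0.054) lost. Same-numbered arrays showed no shared shift: deviations from the group means correlated at -0.02, -0.008 and 0.02 for replicates 1, 2 and 3. These values cannot show whether the cultures were paired.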
